A study of Mus musculus with 24 samples.

Results

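The genes of lipid droplets, lipolysis and glyceroneogenesis were followed in mouse quadriceps, a large thigh muscle, on a high fat and a low fat diet. They were chosen by symbol, as Plin1, Plin4 and Cidec for adipocyte-type droplet proteins, Plin2 and Plin5 for muscle-type droplet proteins, Pnpla2, Lipe and G0s2 for the lipases and their inhibitor, and Dgat2 and Pck1 for triglyceride synthesis and glyceroneogenesis. Of these 10 genes, 9 had 1 probe set each under their symbol in the platform annotation, and all 9 passed the filter on dim genes, among 5793 genes tested of 14754 with a probe set of their own. Plin1 was not analysed here. The rule names symbols and uses no threshold on these values, but the genes were picked with earlier results of these data known.

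The mice were males of strain C57BL/6J, spelled C56BL/6J in the labels. They ate a low fat run-in diet for 3 weeks from 9 weeks of age and then a palm oil diet. The 4 groups were a high fat diet (HF, 45% of energy as fat) for 3 days, a low fat diet (LF, 10%) for 3 days, HF for 28 days and LF for 28 days. Each group held 6 mice with 1 Affymetrix array per mouse, 24 arrays in all, and assignment was random per the labels. Mice were 12 weeks old at day 3 and 16 weeks old at day 28, so that age and time on the diet cannot be told apart. The groups also had separate ranges of mouse numbers, 1767 to 1772 in HF and 2010 to 2019 in LF at day 3, and 1751 to 1758 in HF and 2020 to 2025 in LF at day 28, so diet and set of animals cannot be told apart either.

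Cells store triglyceride in droplets whose surface carries perilipins and, in white adipocytes, the droplet-fusing protein CIDEC. Adipose triglyceride lipase (Pnpla2) opens the breakdown of stored triglyceride, hormone-sensitive lipase (Lipe) follows it, and G0S2 holds the first of these back. New triglyceride needs a glycerol backbone, which adipocytes make in part by glyceroneogenesis through cytosolic PEPCK (Pck1), and a last acylation by DGAT enzymes. Muscle fibres hold small droplets coated mainly with PLIN2 and PLIN5, whereas PLIN1, CIDEC and glyceroneogenesis are known best from adipocytes, some of which lie between muscle fibres and around the muscle.

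All levels are log2 of the authors' GCRMA intensity, in which 1 unit is a doubling, and levels of different genes are not set against each other because each probe set has its own response. Levels are given as the lowest, the median and the highest of the 6 arrays of a group, and differences as HF minus LF with the standard error (SE) of limma's fit. A gene was called when its Benjamini-Hochberg adjusted p over all 5793 genes was under 0.05. Array medians lay between 6.56 and 6.90 on the linear scale, and array pairs correlated at 0.978 to 0.995 over all probe sets. Muscle actin (Acta1) averaged 14.29 and 14.26 in HF and LF muscle at day 28 and 14.26 and 14.28 at day 3. Every group therefore carried the transcripts of muscle. Of 8 muscle fibre markers 1, Myh2, was called at each day. It was higher on HF, by 1.18 ± 0.23 at day 3 and 0.99 ± 0.23 at day 28.

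At day 3, 2 of the 9 genes were called higher on HF, against 7.99% of all genes tested, and 3 were called lower, against 6.87%. At day 28, 1 was called higher, against 5.35% of all genes, and 7 were called lower, against 7.18%. The median difference over the 9 genes was -0.495 at day 3 and -1.24 at day 28, while that over all genes tested was -0.01 and 0.01. Plin5 was the gene called higher at both days, and Cidec, Plin4 and Pck1 were called lower at both. The day 3 count of 3 lower genes was 6 without LF replicate 1, the sample whose label names no DNase step, and with only the arrays of that day fitted 3 genes were called in all. Over all genes, 348 were called lower without LF replicate 1, against 398. With only the arrays of that day, 507 of all genes were called, against 861.

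**Figure D1:**
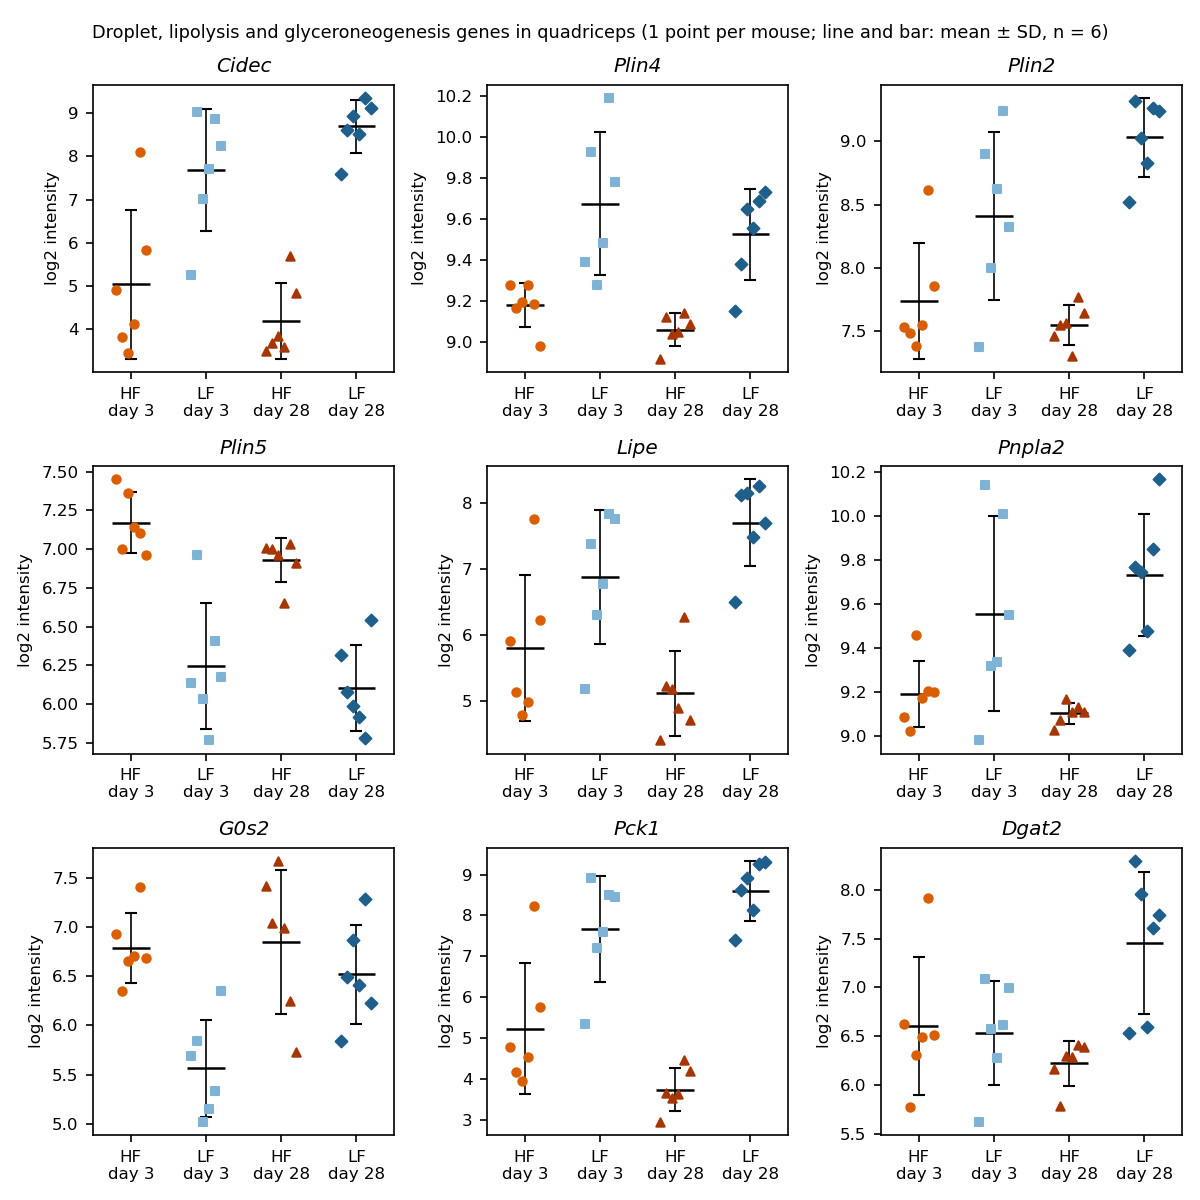
Log2 intensity of the 9 genes in each quadriceps sample (1 point per mouse, 6 per group; line and bar, mean ± SD; y axis ranges differ between panels). At day 28 HF and LF mice did not overlap for any gene but G0s2, with Plin5 higher and the other 7 lower on HF.

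Cidec, whose product fuses small droplets into the large one of a white adipocyte, was lower on HF than on LF at both days. At day 3 it ranged over 3.45, 4.51 and 8.10 in HF muscle (lowest, median and highest), against 5.25, 7.97 and 9.02 in LF muscle. The groups overlapped, since HF replicate 5 at 8.10 stood among the LF mice and LF replicate 1 at 5.25 stood among the HF mice. The difference was -2.65 ± 0.67 (SE, adjusted p = 0.00985), a 6.26-fold lower level. At day 28 Cidec ranged over 3.50, 3.76 and 5.70 in HF muscle, against 7.60, 8.78 and 9.36 in LF muscle. All 6 HF mice then lay below every LF mouse, and the difference was -4.50 ± 0.67 (adjusted p = 9.32e-05), a 22.7-fold lower level. The day 3 call was lost when only the arrays of that day were fitted (adjusted p = 0.0591), and the difference was -3.26 without HF replicate 5 and -3.13 without LF replicate 1.

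Plin4, which coats new droplets and is found in adipocytes and in muscle, was lower on HF by less. Its day 3 levels ranged over 8.98, 9.19 and 9.28 in HF muscle, against 9.28, 9.63 and 10.19 in LF muscle. The HF mice lay within a narrow band below the LF mice, although the closest pair of the 2 diets came level to 2 decimals. The difference was -0.495 ± 0.122 (adjusted p = 0.00839). At day 28 Plin4 ranged over 8.92, 9.07 and 9.14 in HF muscle, against 9.15, 9.60 and 9.73 in LF muscle. Again no HF mouse reached the lowest LF mouse, here by a margin close to 0, and the difference was -0.47 ± 0.12 (adjusted p = 0.0128), about the same as at day 3. The ratio of the beta-actin 3′ to 5′ signal rises with RNA breakdown. Its log2 was 0.25 to 0.37 on the 4 arrays where it was highest, close to HF day 28 replicate 1 at 0.24. Without these 4 arrays Plin4 was not called at day 28 (adjusted p = 0.0529), at a difference of -0.45 ± 0.14 that was about as large as with all arrays.

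Plin2, the perilipin of most cells with droplets, whose protein is degraded when no lipid is bound, was lower on HF than on LF at day 28. At day 3 it ranged over 7.39, 7.54 and 8.62 in HF muscle, against 7.38, 8.48 and 9.24 in LF muscle. The groups overlapped, with HF replicate 5 highest on HF and LF replicate 1 lowest of all 12 mice. The difference of -0.67 ± 0.24 did not pass the test (adjusted p = 0.0620). It passed without LF replicate 1 (-0.88, adjusted p = 0.00796), without HF replicate 5 (-0.85, 0.0148) and without LF replicate 3 (-0.76, 0.0479). At day 28 Plin2 ranged over 7.30, 7.56 and 7.77 in HF muscle, against 8.52, 9.14 and 9.32 in LF muscle. The day 28 groups lay well apart, at a difference of -1.49 ± 0.24 (adjusted p = 0.000228), a 2.80-fold lower level.

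Plin5, which tethers droplets to mitochondria in heart, muscle and other oxidative tissue, was higher on HF than on LF at both days. At day 3 it ranged over 6.96, 7.12 and 7.45 in HF muscle, against 5.76, 6.15 and 6.96 in LF muscle. LF replicate 2, the highest on LF, came level with the lowest HF mouse to 2 decimals, and the other LF mice lay well below. The difference was 0.93 ± 0.15 (adjusted p = 0.000298), a 1.90-fold higher level. At day 28 Plin5 ranged over 6.65, 6.98 and 7.03 in HF muscle, against 5.78, 6.03 and 6.54 in LF muscle. All HF mice lay above all LF mice, and the difference was 0.82 ± 0.15 (adjusted p = 0.000814). Leaving out each array in turn gave 0.83 to 1.07 at day 3 and 0.76 to 0.91 at day 28, with the call kept each time.

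Plin4 and Plin5 are neighbours on chromosome 17 in the RefSeq annotation, and differed between the diets in opposite directions. Because of that contrast, the 250 bases before the start of each are shown with those of Plin2, from the RefSeq promoter table of build GRCm38.p6, all 3 on the minus strand and written 5′ to 3′. The Plin4 window is chr17:56109783-56110032, that of Plin5 chr17:56117549-56117798 and that of Plin2 chr4:86670060-86670309. Capitals mark the half-site AGGTCA, bound by nuclear receptors such as PPARs, on either strand.
Plin4: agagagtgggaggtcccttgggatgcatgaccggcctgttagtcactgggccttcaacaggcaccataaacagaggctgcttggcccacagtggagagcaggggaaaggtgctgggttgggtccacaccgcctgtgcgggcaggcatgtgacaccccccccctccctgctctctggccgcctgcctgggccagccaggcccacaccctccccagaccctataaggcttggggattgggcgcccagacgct
Plin5: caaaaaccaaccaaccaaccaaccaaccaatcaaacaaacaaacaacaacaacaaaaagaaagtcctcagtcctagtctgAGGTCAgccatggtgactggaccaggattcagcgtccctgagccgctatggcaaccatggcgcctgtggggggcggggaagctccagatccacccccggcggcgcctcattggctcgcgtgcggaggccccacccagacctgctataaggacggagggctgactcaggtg
Plin2: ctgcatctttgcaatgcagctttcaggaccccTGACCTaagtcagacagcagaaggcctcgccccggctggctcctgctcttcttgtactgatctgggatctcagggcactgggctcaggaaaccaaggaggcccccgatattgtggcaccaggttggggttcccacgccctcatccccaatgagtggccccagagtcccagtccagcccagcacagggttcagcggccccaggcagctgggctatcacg
Plin5 and Plin2 held 1 match each, Plin5 on the shown strand and Plin2 on the other one, and Plin4 held none. Of 32851 promoter windows of the same length, 14% held the half-site, so a match is a description of these letters and not a binding site. A further Plin5 window in the table held none.

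Pnpla2, the lipase that opens triglyceride breakdown, was lower on HF than on LF at day 28. At day 3 it ranged over 9.02, 9.19 and 9.46 in HF muscle, against 8.98, 9.44 and 10.14 in LF muscle. The LF mice spread far more widely than the HF mice, and the groups overlapped. The difference of -0.37 ± 0.15 was not called (adjusted p = 0.109), but was without LF replicate 1 (-0.48, adjusted p = 0.0248). At day 28 Pnpla2 ranged over 9.03, 9.11 and 9.17 in HF muscle, against 9.39, 9.75 and 10.17 in LF muscle. No HF mouse reached an LF mouse, and the difference was -0.63 ± 0.15 (adjusted p = 0.00691), a 1.55-fold lower level.

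Lipe, the hormone-sensitive lipase of adipocytes and, at lower levels, muscle, differed further in the same direction. Levels at day 3 ranged over 4.80, 5.52 and 7.76 in HF muscle, against 5.19, 7.08 and 7.84 in LF muscle. As for Cidec, HF replicate 5 stood high and LF replicate 1 stood lowest of its group. The difference of -1.07 ± 0.48 was not called (adjusted p = 0.138), but was without HF replicate 5 (-1.46, adjusted p = 0.0272) and without LF replicate 1 (-1.41, 0.0419). At day 28 Lipe ranged over 4.40, 5.04 and 6.28 in HF muscle, against 6.50, 7.92 and 8.26 in LF muscle. The groups did not overlap, and the difference was -2.59 ± 0.48 (adjusted p = 0.000809), a 6.02-fold lower level.

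G0s2, the inhibitor of the lipase that Pnpla2 encodes, was higher on HF than on LF at day 3. It ranged over 6.35, 6.69 and 7.41 in HF muscle, against 5.02, 5.51 and 6.35 in LF muscle. All HF mice lay above all LF mice, although the closest pair, HF replicate 2 and LF replicate 6, came level to 2 decimals. The difference was 1.22 ± 0.29 (adjusted p = 0.00662), a 2.34-fold higher level. At day 28 G0s2 ranged over 5.73, 7.01 and 7.67 in HF muscle, against 5.84, 6.45 and 7.28 in LF muscle. The groups overlapped in full, and the difference of 0.33 ± 0.29 was not called (adjusted p = 0.527), with a 95% interval of -0.28 to 0.93. Day 28 LF muscle was 0.95 ± 0.29 above day 3 LF muscle and day 28 HF muscle 0.06 ± 0.29 above day 3 HF muscle, neither of them called (adjusted p = 0.121 and 0.951).

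Pck1, which makes the phosphoenolpyruvate that feeds glyceroneogenesis in adipocytes, had the largest difference of the 9 genes at day 28. Its day 3 levels ranged over 3.95, 4.65 and 8.22 in HF muscle, against 5.34, 8.03 and 8.92 in LF muscle. The overlap came from the same mice as for Cidec, HF replicate 5 and LF replicate 1. The difference was -2.44 ± 0.61 (adjusted p = 0.00908), a 5.43-fold lower level. At day 28 Pck1 ranged over 2.94, 3.64 and 4.46 in HF muscle, against 7.40, 8.77 and 9.31 in LF muscle. The groups lay far apart, at -4.87 ± 0.61 (adjusted p = 1.75e-05), a 29.2-fold lower level, and the size of such a fold depends on the background correction of a dim signal. With 8 added to every intensity before the log, the differences were -2.16 and -4.20 for Pck1 and -2.30 and -3.96 for Cidec at days 3 and 28. The Pck1 call at day 3 was lost when only the arrays of that day were fitted (adjusted p = 0.0599), and its difference was -3.04 without HF replicate 5 and -2.91 without LF replicate 1.

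The promoter of Pck1 is shown because its cyclic AMP response element is a textbook example of hormonal control in liver and fat. It spans chr2:173152823-173153072 on the plus strand of GRCm38.p6, from the RefSeq table, with the half-element ACGTCA, found on the shown strand, in capitals.
Pck1: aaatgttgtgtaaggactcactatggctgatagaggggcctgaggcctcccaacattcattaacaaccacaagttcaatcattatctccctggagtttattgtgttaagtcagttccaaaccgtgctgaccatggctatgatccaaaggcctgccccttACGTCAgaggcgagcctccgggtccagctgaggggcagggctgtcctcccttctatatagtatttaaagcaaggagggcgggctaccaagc
That half-element, searched on both strands, stood in 6.47% of the 32851 windows and in no other window of these genes. The table held 12 windows, of Plin1 and of the genes measured here except Dgat2. Of these 12, 1 of Lipe held the E-box CACGTG, which 6.02% of all windows hold, and none held TATAAA, which 12.4% hold.

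Dgat2, one of the enzymes that add the last acyl chain to make triglyceride, was lower on HF than on LF at day 28. Levels at day 3 ranged over 5.77, 6.50 and 7.91 in HF muscle, against 5.62, 6.59 and 7.09 in LF muscle. The groups overlapped, and the difference of 0.08 ± 0.32 was not called (adjusted p = 0.901), with a 95% interval of -0.58 to 0.74. Its sign changed without HF replicate 5 (-0.18) and without LF replicate 1 (-0.10). At day 28 Dgat2 ranged over 5.79, 6.29 and 6.41 in HF muscle, against 6.53, 7.68 and 8.30 in LF muscle. No HF mouse reached the lowest LF mouse, and the difference was -1.24 ± 0.32 (adjusted p = 0.0116), a 2.35-fold lower level, not called without the 4 arrays of highest beta-actin ratio (adjusted p = 0.0504), where the difference was -1.24 ± 0.38.

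By overlap, 2 of the 9 genes, Plin5 and G0s2, were higher in every HF mouse than in any LF mouse at day 3, against 3.5% of all genes, and 1, Plin4, was lower, against 2.59%. At day 28 Plin5 was higher in this sense, against 3.49% of all genes, and the 7 called lower genes were lower, against 4.56%. The size of the diet difference at day 28 minus that at day 3, the interaction, was called for none of the 9 genes by limma and for 1.38% of all genes. At an unadjusted p under 0.05, where the share of all genes was not counted, there were 5. These were Pck1 (-2.43 ± 0.86, adjusted p = 0.137), Lipe (-1.52 ± 0.68, 0.235), Dgat2 (-1.31 ± 0.45, 0.126), G0s2 (-0.90 ± 0.41, 0.244) and Plin2 (-0.81 ± 0.34, 0.204). A diet difference that changed between the days is therefore not shown for any of these 5, and Plin4 (0.03 ± 0.17) and Plin5 (-0.10 ± 0.22) had interactions within 1 SE of 0. The diet comparisons of the 2 days rest on separate mice.

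Between the days, limma called none of the 9 genes on HF, where 0.552% of all genes were called, and none on LF, where 0.345% were. At an unadjusted p under 0.05, again with no count over all genes, there was 1 on HF, Pck1 (day 28 minus day 3, -1.49 ± 0.61, adjusted p = 0.256). On LF there were 3, G0s2 (0.95 ± 0.29, adjusted p = 0.121), Dgat2 (0.93 ± 0.32, 0.163) and Plin2 (0.62 ± 0.24, 0.198). The group means of Cidec, Plin2, Pnpla2, Lipe and Pck1 ran in the same order, highest on LF at day 28, then LF at day 3, HF at day 3 and HF at day 28. Neighbours within a diet missed the adjusted threshold in limma, and of these 5 genes only Plin2 on LF and Pck1 on HF had an unadjusted p under 0.05. For Plin4, LF at day 3 was highest and HF at day 28 lowest. For Plin5 the order was HF at day 3, HF at day 28, LF at day 3 and LF at day 28. For G0s2 the LF day 3 mean of 5.56 stood apart below the others, which lay between 6.52 and 6.85, and for Dgat2 the LF day 28 mean of 7.46 stood above the others, between 6.22 and 6.60.

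**Figure D2:**
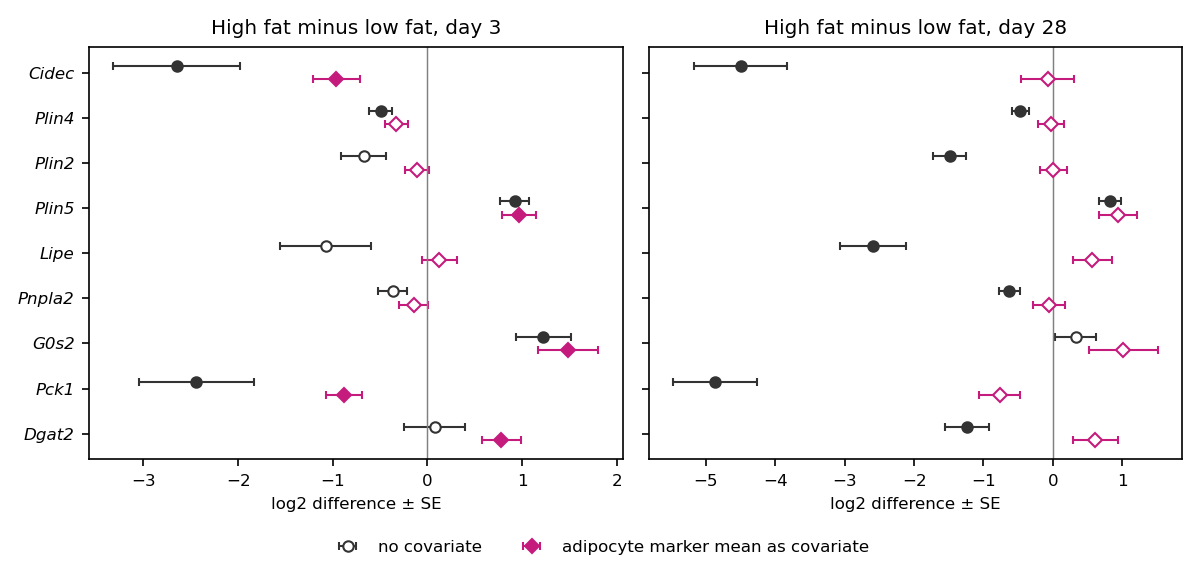
Log2 difference, HF minus LF, with its SE for each gene at day 3 (left) and day 28 (right), in the fit without a covariate (circles) and in that with the adipocyte marker mean as covariate (diamonds). Filled symbols are called at an adjusted p under 0.05, and with the covariate none of the 9 genes was called at day 28, where G0s2 stood at 1.02, Plin5 at 0.94 and Pck1 at -0.77.

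Markers of white adipocytes moved with these genes. Of 12 listed, none of them among the 9 genes, 10 had a probe set and 8 were tested. At day 3, 3 of the 8 were called lower, Retn, Thrsp and Fasn, and 1, Car3, which muscle makes as well, higher. The 3 lower calls were lost when only the arrays of that day were fitted (adjusted p = 0.122, 0.0603 and 0.0501). At day 28, 7 were called lower and none higher. The summed intensity of the 10 ranged from 9009 to 17211 in HF and from 7824 to 17139 in LF muscle at day 3, and from 8506 to 10135 in HF and from 12310 to 21580 in LF muscle at day 28. Car3, with group means of 12.20 to 12.59 (log2), and Fabp4, with 11.46 to 12.65, make up most of that sum. It therefore says little about the other markers. Leptin (Lep) and Aqp7 were dim, with group means of 1.78 to 2.27 and of 2.40 to 2.97, and had no place among the genes tested. In whole muscle, fewer cells of a type and less RNA per cell cannot be told apart.

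A mean log2 level was taken over 5 of these markers, Adipoq, Retn, Fabp4, Pparg and Cebpa. They are the tested genes of a list of 6 adipocyte identity markers, which leaves out Thrsp, Fasn and Car3. At day 3 this mean ranged over 6.00, 6.59 and 8.79 in HF muscle, against 6.53, 8.10 and 8.77 in LF muscle. HF replicate 5 was the highest and LF replicate 1 the lowest of their groups, as they were for Cidec, Pck1, Plin2 and Lipe. At day 28 the mean ranged over 5.73, 6.15 and 6.77 in HF muscle, against 7.91, 9.14 and 9.55 in LF muscle, with no overlap. Within groups, a step of 1 in that mean went with a step of 1.56 ± 0.11 (SE) in Cidec, 1.44 ± 0.09 in Pck1, 1.11 ± 0.08 in Lipe, 0.65 ± 0.09 in Dgat2 and 0.53 ± 0.06 in Plin2. The steps were smaller for G0s2 (0.24 ± 0.14), Pnpla2 (0.20 ± 0.07) and Plin4 (0.15 ± 0.06), and that of Plin5 was 0.04 ± 0.08. Plin2, chosen as muscle-type, thus had a larger step than Plin4, chosen as adipocyte-type. Without HF replicate 5 of day 3, the steps of Pnpla2 and Plin4 were 0.33 ± 0.08 and 0.25 ± 0.06.

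**Figure D3:**
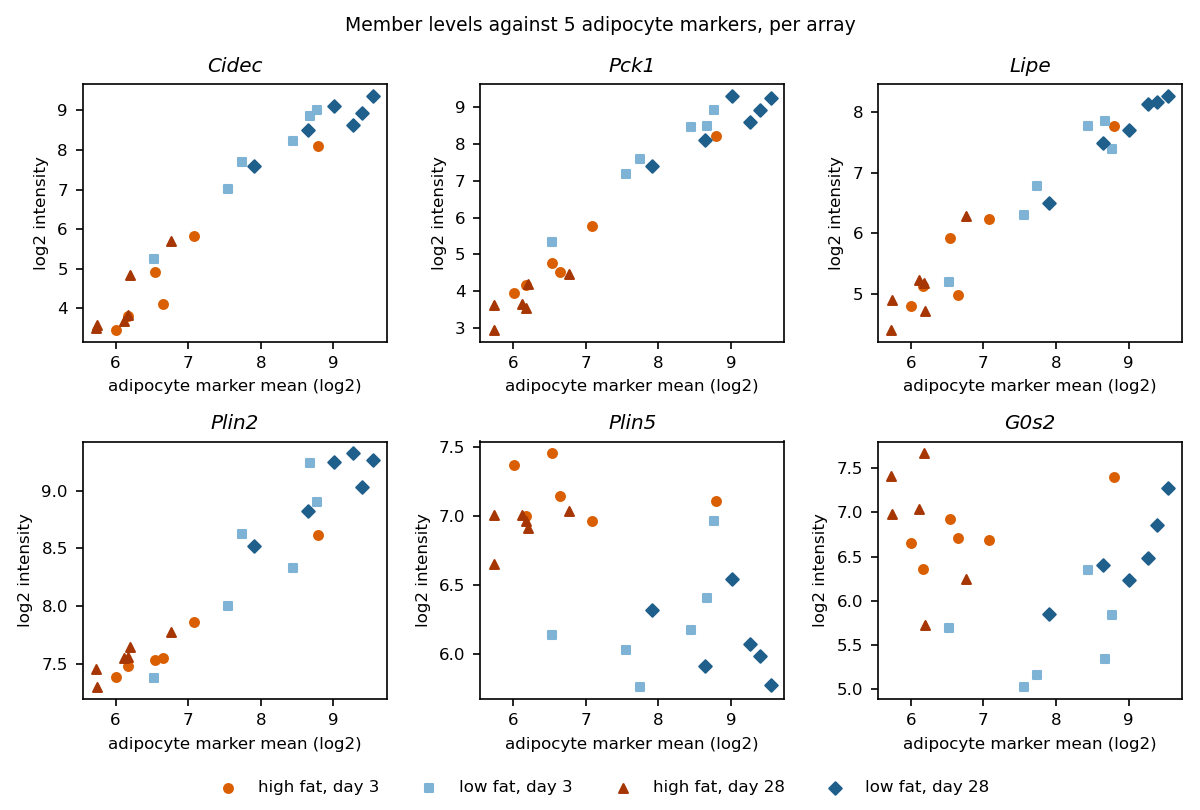
Log2 intensity of 6 of the genes against the mean log2 intensity of 5 adipocyte markers, 1 point per array, coloured by group. Cidec, Pck1, Lipe and Plin2 run along the marker mean across all 4 groups, whereas Plin5 lies near 7 in HF mice and mostly near 6 in LF mice. Within a day, the diets share marker levels at day 3 only.

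With this marker mean as covariate, 3 of the 9 genes were called higher and 2 lower on HF at day 3. Over all 5793 genes, 422 were called higher and 410 lower in that fit. Plin5 (0.97 ± 0.18, adjusted p = 0.00107) and G0s2 (1.49 ± 0.32, 0.00390) kept their calls. Cidec (-0.96 ± 0.25, 0.0118) and Pck1 (-0.88 ± 0.19, 0.00383) did too at smaller differences, Dgat2 was called higher (0.78 ± 0.21, 0.0137) and Plin4 was not called (-0.33 ± 0.12, 0.0751). At day 28 none of the 9 was called, against 24 of all 5793 genes. Cidec had -0.08 ± 0.39, Plin2 0.01 ± 0.20, Plin4 -0.03 ± 0.19 and Pnpla2 -0.05 ± 0.23. Plin5 had 0.94 ± 0.27 (adjusted p = 0.166), against 0.82 ± 0.15 without the covariate. G0s2 had 1.02 ± 0.50 (0.499), against 0.33 ± 0.29, and Pck1 had -0.77 ± 0.29 (0.336), against -4.87 ± 0.61. Lipe at 0.57 ± 0.28 (0.510) and Dgat2 at 0.61 ± 0.32 (0.540) had turned in sign. At that day no array of either diet had a marker mean between 6.77 and 7.91, so the covariate and the diet largely stand for each other.

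Slow fibre markers moved with diet as well. All 8 were called higher on HF at both days, and their summed intensity ranged from 3407 to 21243 in HF and from 189 to 1785 in LF muscle at day 3, and from 4461 to 8191 in HF and from 211 to 2087 in LF muscle at day 28. The mean of the 8 separated the diets, at 8.17 or more in each HF mouse and 7.53 or less in each LF mouse. With that mean as a covariate, none of the 9 genes was called at day 3, against 16 of all genes, and 1 at day 28, Pck1 (-4.70, adjusted p = 0.0445), against 28. Plin5 then had 1.01 ± 0.27 (adjusted p = 0.120) at day 3 and 0.90 ± 0.26 (0.125) at day 28, no smaller than without the covariate. G0s2 had 0.71 ± 0.51 at day 3. Several calls were lost to wider errors at differences of similar size. Cidec had -2.29 (adjusted p = 0.468) at day 3 and -4.18 ± 1.12 at day 28, and Pck1 had -2.25 ± 1.10 at day 3. At day 28 Lipe had -2.90 ± 0.80, Plin2 -1.25 ± 0.40 and Dgat2 -1.999 ± 0.495, the last larger than without the covariate.

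Other markers moved too, and their part in these results was not tested. All 6 tested macrophage markers were called lower on HF at day 28 and 1, Cd163, at day 3. The sums of that list ranged from 349 to 632 in HF and from 458 to 1194 in LF muscle at day 3, and from 275 to 547 in HF and from 566 to 1353 in LF muscle at day 28. Of 6 tested endothelial markers, 5 were called higher at day 3, and at day 28 all 6 missed limma's threshold (Tek had the lowest adjusted p, 0.0515), with sums from 748 to 874 in HF and from 585 to 688 in LF muscle at day 3, and from 706 to 943 in HF and from 609 to 778 in LF muscle at day 28. Of 6 fibroblast markers, 2 were called higher at day 3 and 1 lower at day 28, with overlapping sums at both days. The day 3 calls, Col1a1 and Col1a2, were lost when only the arrays of that day were fitted (adjusted p = 0.0725 and 0.0645), and so was that of the endothelial Kdr (0.0712). Of 3 tested brown adipocyte markers, Cidea and Ucp1 were called lower at day 28. The third, Cox8b, went slightly the other way and was not called at either day. It had 0.107 ± 0.059 at day 3 and 0.115 ± 0.059 at day 28 (adjusted p = 0.231 and 0.228). Ucp1 stood at 2.09 to 2.44 in HF muscle at day 28, below the array medians and so poorly measured, and at 3.02 to 7.47 in LF muscle. At day 3 HF replicate 5 again stood apart, at 7.33, from the other HF mice, at 1.85 to 2.15.

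Within groups, over 24 arrays and after removing group means, the genes formed a block as a description of these arrays. Cidec correlated with Pck1 at 0.97, with Lipe at 0.92 and with Plin2 at 0.89, and Pnpla2 with Plin4 at 0.76. Plin5 correlated with Cidec at 0.14 and with Pnpla2 at 0.58, and G0s2 with none of the others above 0.36. The 5 tested genes most like Cidec by this measure were Retn (0.98), Pck1 (0.97), Orm1 (0.97), Adipoq (0.96) and Acp5 (0.96). Those most like Plin5 were Pmm1 (0.79), Gbe1 (0.73), Cnot10 (0.73), Sesn1 (0.70) and Gucd1 (0.68). All points share array quality and tissue make-up.

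Of 12 further genes of the droplet coat and structure, 9 were tested. At day 3 none was called lower and 2 were called higher, Plin3 (0.51 ± 0.17, adjusted p = 0.0418), another perilipin of most tissues, and Cav1 (0.34 ± 0.11, 0.0494), the caveolin, and both calls were lost under several alternatives. At day 28 Cidea, a relative of Cidec known from brown fat (-5.59 ± 0.85, adjusted p = 0.000115), and Bscl2, the seipin of droplet formation (-1.33 ± 0.22, 0.000300), were called lower. Cidea lay at 1.98 to 2.84 in HF muscle, near or below the array medians, and at 6.32 to 8.76 in LF muscle, so its level on HF is poorly measured and the size of its difference is uncertain. The median of the 9 was 0.02 at day 3 and -0.09 at day 28. The uncalled Fitm1 and Fitm2, which help droplets form in muscle and fat, had 0.20 ± 0.10 and -0.15 ± 0.10 at day 28 (adjusted p = 0.236 and 0.354).

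Of 13 further genes of lipolysis and its control, 7 had a probe set of their own and 5 were tested, with a median of -0.21 at day 3 and -0.52 at day 28. None was called at day 3. At day 28 Prkar2b, a regulatory subunit of protein kinase A (-3.28 ± 0.54, adjusted p = 0.000254), Fabp4, the fatty acid carrier of adipocytes (-1.19 ± 0.18, 0.000105), and Abhd5, the coactivator of the lipase that Pnpla2 encodes (-0.38 ± 0.08, 0.00193), were called lower. The same limit holds for Prkar2b, at 1.85 to 2.65 in HF and 4.19 to 6.35 in LF muscle. Mgll, which cleaves the last acyl chain, had -0.52 ± 0.20 (adjusted p = 0.0982).

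Of 14 genes of glycerolipid synthesis, 8 were tested, with a median of -0.18 at day 3 and -0.29 at day 28. Lpin1, the phosphatidate phosphatase of muscle and fat, was called lower at day 3 (-0.66 ± 0.12, adjusted p = 0.000609) and at day 28 (-0.45 ± 0.12, 0.0127). Acsl3, an acyl-CoA synthetase of droplets, was called lower at both days too (-0.74 ± 0.17 and -0.68 ± 0.17, adjusted p = 0.00469 and 0.00798). At day 28 Dgat1, which shares the reaction of DGAT2 (-1.78 ± 0.35, adjusted p = 0.00125), and Acsl5 (-0.59 ± 0.15, 0.0104) were called lower as well. Gpam, the mitochondrial enzyme of the first acylation, was not called, at 0.41 ± 0.16 (adjusted p = 0.0860).

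Of 10 genes that supply glycerol phosphate, 4 were tested, with a median of -0.40 at day 3 and -0.83 at day 28. Pcx, pyruvate carboxylase, which feeds the reaction of PEPCK (-0.96 ± 0.28 and -1.88 ± 0.28, adjusted p = 0.0212 and 8.43e-05), and Slc25a1, the citrate carrier (-1.89 ± 0.61 and -4.62 ± 0.61, 0.0400 and 3.49e-05), were called lower at days 3 and 28. Slc25a1 lay at 2.70 to 3.37 in HF muscle at day 28, near the array medians, and at 6.47 to 8.85 in LF muscle, so the size of its difference is uncertain. Slc25a11, the oxoglutarate carrier, was called higher by a small step (0.20 ± 0.06 and 0.21 ± 0.06, adjusted p = 0.0322 and 0.0264). The day 3 calls of all 3 were lost when only the arrays of that day were fitted (adjusted p = 0.101, 0.132 and 0.0827). Gpd1 and the glycerol kinase gene Gyk were not analysed here.

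Of 13 transcriptional regulators of such genes, 10 were tested, with a median of -0.29 at day 3 and -0.18 at day 28. Pparg, the nuclear receptor of adipocyte formation (-2.51 ± 0.40, adjusted p = 0.000194), and Cebpa, its partner factor (-3.36 ± 0.48, 6.24e-05), were called lower at day 28. Both are among the 5 genes of the adipocyte marker mean. Pparg lay at 2.37 to 3.05 in HF muscle at day 28, near the array medians, and at 3.74 to 6.27 in LF muscle. The size of its difference is therefore uncertain. At day 3 Klf15 (-1.21 ± 0.16, adjusted p = 1.98e-05), Cebpb (-0.74 ± 0.16, 0.00396) and Rxra (-0.29 ± 0.07, 0.00698) were called lower. The Klf15 difference was smaller at day 28, with an interaction of 0.88 ± 0.22 (adjusted p = 0.0457). Ppara, the receptor to which Plin5 responds in liver, had 0.53 ± 0.66 and 0.82 ± 0.66 and was not called (adjusted p = 0.633 and 0.486).

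When the adipocyte marker mean entered the fit, few genes of any kind were called at day 28, 24 of 5793, and the genes of these 5 wider lists named above as called at that day were not among them. Fabp4, Pparg and Cebpa are part of that mean, so nothing can be read from their values in this fit. Differences near those without the covariate were left for Lpin1 (-0.48), Acsl3 (-0.94) and Slc25a11 (0.19), and smaller or turned ones for Cidea (-0.58), Slc25a1 (-0.75), Pcx (-0.21), Abhd5 (-0.16), Bscl2 (0.09), Acsl5 (0.09), Prkar2b (0.21) and Dgat1 (0.34). Of the genes called at day 3, Cav1, Lpin1, Acsl3, Klf15, Cebpb and Rxra kept their calls.

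**Figure D4:**
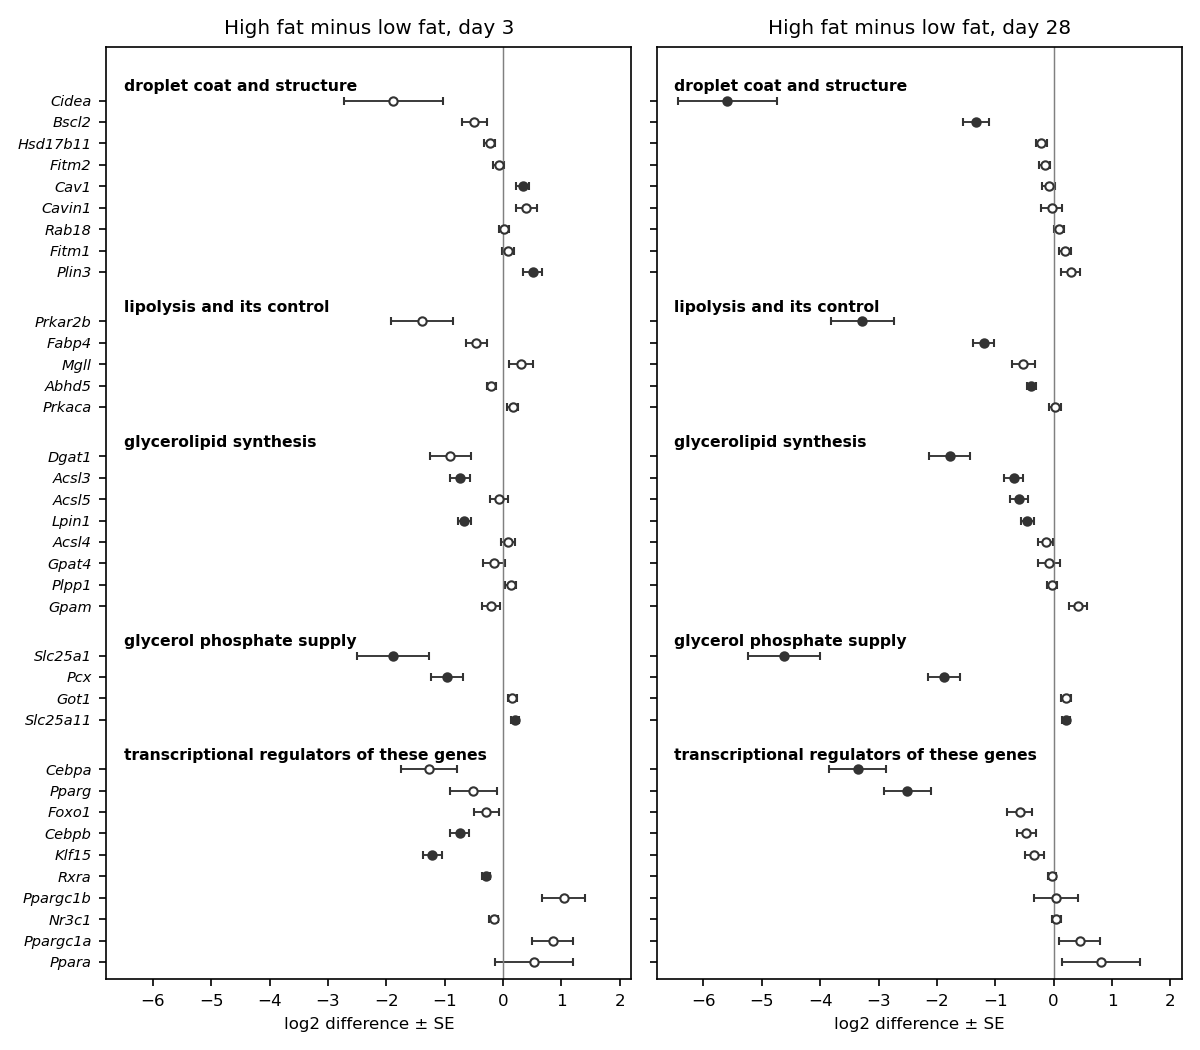
Log2 difference, HF minus LF, with its SE for the tested genes of the 5 wider lists at day 3 (left) and day 28 (right), none of them among the 9 genes. Filled circles are called at an adjusted p under 0.05, and at day 28 all filled circles but Slc25a11 lie below 0.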

How the data were processed

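RNA of 24 quadriceps samples was measured on Affymetrix arrays, 1 array per mouse. The deposited table holds linear intensity values per probe set, which the authors computed with GCRMA per the submitters' processing notes, with its version and the genome build not given in the sources used here. GCRMA corrects background by probe sequence, so values of dim probe sets depend on that step, and the number of arrays limits the precision. The values ran from 0.881 to 20520. The labels name a DNase step in the extraction of every sample but 1, LF day 3 replicate 1.

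Here log2 of the intensity was taken with no offset. Of 16361 probe sets, 14771 had 1 gene symbol, 589 several, 937 none listed and 64 were controls, and probe sets of several genes were named after none. The probe set of highest mean stood for a gene with several. Genes with a log2 value over 4 on at least 6 of 24 arrays were tested. Group means were fitted over all arrays with limma 3.58.1 (lmFit and eBayes, 20 residual degrees of freedom) in R 4.3.3, two-sided, and the fit was tested on simulated data. Groups and replicate numbers came from the labels. The genes and lists were chosen with earlier results of these data known. All 10 genes were to be named, with, per wider list, up to 4 called genes of largest difference at day 28 and up to 2 at day 3, Abhd5, Plin3, Gpd1 and Gyk, and the 5 genes most like Cidec and Plin5 by within-group correlation. Fitm1, Fitm2, Mgll, Gpam, Ppara and Rxra were added after their values were seen. Alternatives were other normalization, offset, filters and variance models, array weights, a replicate block, 2 marker means as covariates, and arrays left out. Promoter windows came from the RefSeq table of build GRCm38.p6.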

Additional observations from a re-analysis of the deposited data

Results flagged for a closer look

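One of the 36 sets of 6 values, Plin5 in HF muscle at day 28, had a sample far from the others. Its lowest mouse, replicate 4, stood at 6.65 (log2), and the next mouse at 6.91. That gap was 0.685 of the range of the group, above Dixon's 95% critical value of 0.625 for 6 samples. Chance flags about 1 in 20 such groups, so 1 of 36 is no more than chance would give. The mouse still lay above every LF mouse of that day.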

How the results depend on the processing

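At day 28, 8 genes were called in each fit that left out 1 array, and in the other alternatives 8, except 6 without the 4 arrays of highest beta-actin ratio, 1 with the slow fibre mean and 0 with the adipocyte marker mean, both as covariates. Over all genes, day 28 had 726 calls, against 490 without those 4 arrays, 28 with the slow fibre mean and 24 with the adipocyte marker mean. At day 3, 5 genes were called, against 3 with only the arrays compared, 0 with the slow fibre mean, 6 with array weights, 7 with a replicate block, and 5 to 8 when single arrays were left out (8, 2 higher and 6 lower, without LF replicate 1). Over all genes, day 3 had 861 calls, against 507 with only the arrays compared and 16 with the slow fibre mean. It had 824 with array weights, 812 with a replicate block and 802 without LF replicate 1. The interaction count was 1 with a replicate block (Pck1, -2.43, adjusted p = 0.0434), and the LF time count was 2 with array weights (Plin2, 0.83, and Dgat2, 1.13, adjusted p = 0.0360 and 0.0463). Otherwise these 2 counts and that of HF over time were 0. Over all genes, LF over time had 132 calls with array weights, against 20.

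Signs turned as follows, and the cause was not tested. With the adipocyte marker mean, Lipe had 0.13 at day 3, and at day 28 Lipe had 0.57, Dgat2 0.61 and Plin2 0.0072. In that fit the interaction was 0.89 for Cidec, 0.11 for Plin2, 0.0933 for Pnpla2, 0.44 for Lipe and 0.11 for Pck1. Day 28 minus day 3 was then 0.33 for Cidec, 0.20 for Plin2, 0.0645 for Pnpla2, 0.15 for Lipe and 0.11 for Dgat2 on HF, and -0.56 for Cidec, -0.0288 for Pnpla2, -0.29 for Lipe and -0.52 for Pck1 on LF. With the slow fibre mean, Dgat2 had -0.77 at day 3 and G0s2 -0.13 at day 28. With array weights, Dgat2 had -0.0773 at day 3 and the Plin4 interaction was -0.0890. Leaving out single arrays gave -0.18 to 0.24 for Dgat2 at day 3, -0.0741 to 0.11 for the Plin4 interaction, -0.11 to 0.28 for G0s2 on HF over time and -0.24 to 0.0011 for Plin5 on LF over time. None of these values was called in the fit with all arrays and no covariate except those of Lipe, Dgat2 and Plin2 at day 28.

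Same-numbered mice of different groups correlated at -0.38 to 0.54 in their deviations, and mice of other numbers at -0.41 to 0.62. Between HF and LF at day 28 the highest value was 0.54 for the same number and 0.32 for other numbers. These ranges do not settle whether mice of the same number share more than that number. With the replicate block Plin2 (adjusted p = 0.0168) and Lipe (0.0449) were also called lower at day 3, and over all genes the interaction had 176 calls, against 80. Quantile normalization gave 59 higher and 41 lower interaction calls over all genes, against 39 and 41. Dim probe sets limit the size of folds, and separate animals for each diet and day limit every comparison.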
